A study of Mus musculus with 11 samples.

Results

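The hedgehog pathway was described through 9 genes: the ligand Shh, its receptor Ptch1, the ligand-binding inhibitor Hhip, the signal transducer Smo, the co-receptors Boc and Cdon, and the transcription factors Gli1, Gli2 and Gli3. The genes were taken by name as parts of the pathway, with no threshold on their values, and were measured by 23 of the 45101 probe sets on each array. Of these, 18 lay above their array's median in at least 2 of the 11 arrays, and 5 did not, so that each of the 9 genes kept at least 1 probe set. The samples were ureteral smooth muscle (3 arrays), urothelium, the epithelium lining the ureter (3 arrays), cortical collecting duct (2 arrays) and early proximal tubule (3 arrays). Every sample came from wild-type CD-1 mice, an outbred stock, at E15.5 (Theiler stage 23), was cut from frozen fetal kidney sections with a laser, and pooled about 50 sections of 5 kidneys. Its RNA was amplified in 2 rounds before hybridisation. The labels do not say whether the pools of a compartment came from separate animals. A p-value here sets a difference against the spread among pools, estimated over all compartments together, and part of that spread may be technical. The small number of arrays limits the precision.

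Hedgehog signalling starts when a secreted ligand such as Shh binds Ptch1, which otherwise holds the membrane protein Smo inactive. Freed Smo acts at the primary cilium and shifts the Gli proteins from repressors towards activators of transcription. Ptch1, Hhip and Gli1 are themselves transcribed in cells that receive the signal, and Ptch1 and Hhip then bind and restrain the ligand. In the fetal mouse ureter, the urothelium is known to make Shh, and the mesenchyme around it, in which the smooth muscle forms, is known to receive it.

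The compartments were checked against their own markers before the hedgehog genes were read. The summed signal of 8 smooth muscle markers, such as Acta2 and Myh11, ran from 224270 to 285746 in smooth muscle arrays, against 10571 to 63741 in urothelium, 3492 to 3733 in collecting duct and 2850 to 6340 in proximal tubule, and 7 of the 8 were called higher in smooth muscle against the other 3. Urothelium arrays had the highest sums of 8 urothelial markers (37530 to 105788), collecting duct arrays of 8 collecting duct markers (69603 and 75720) and proximal tubule arrays of 8 proximal tubule markers (96573 to 138131). Of the urothelial markers Upk1a, and of the collecting duct markers Hoxb7, lay at low signals in their own compartment and were removed by the filter. Within urothelium, the smooth muscle marker sum was 63741, 39226 and 10571 in replicates 1, 2 and 3. The 8 interstitial and stromal markers moved with smooth muscle as well, with sums of 348116 to 495516 there, against 71954 to 142233 in urothelium, 52840 to 93941 in collecting duct and 41298 to 67161 in proximal tubule, and 6 of the 8 were called higher; their part in the smooth muscle results was not tested. A date-like part of the sample names splits the arrays into 4 label batches, of which urothelium shares none with collecting duct or proximal tubule. The 3' over 5' ratio of Gapdh, a measure of RNA quality, stood at 16.7, 55.3 and 29.7 in the urothelium arrays and at 6.79 to 25.9 in the others, whereas the same ratio of actin stood at 6.66, 5.43 and 5.15 in urothelium and at 5.07 to 13.5 in the others. In such pools of captured tissue, fewer cells of a type and less RNA per cell cannot be told apart.

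The ligand Shh was high in urothelium and collecting duct, while the mean levels of Ptch1, Hhip, Gli1, Gli2 and Gli3 were highest in smooth muscle. On the probe set used for the gene, Ptch1 lay above the array's median in all 11 arrays, those of the compartments high in Shh included. Its second kept probe set did so in 6 arrays and had its highest mean in collecting duct (9.21, against 8.77 in smooth muscle, log2). Smo was called in no comparison. Of the 2 co-receptors, Cdon was highest in collecting duct and lowest in smooth muscle, and Boc was called on 1 of its probe sets only. Levels are given as the deposited signal, a linear intensity, and differences on the log2(signal + 55) scale, on which a dim gene's fold comes out smaller than in signal units. A gene was called at an adjusted p under 0.05 and an absolute log2 difference of at least 1, both from 1 limma fit over 13614 genes, in which each gene was read from its probe set with the highest mean.

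**Figure D1:**
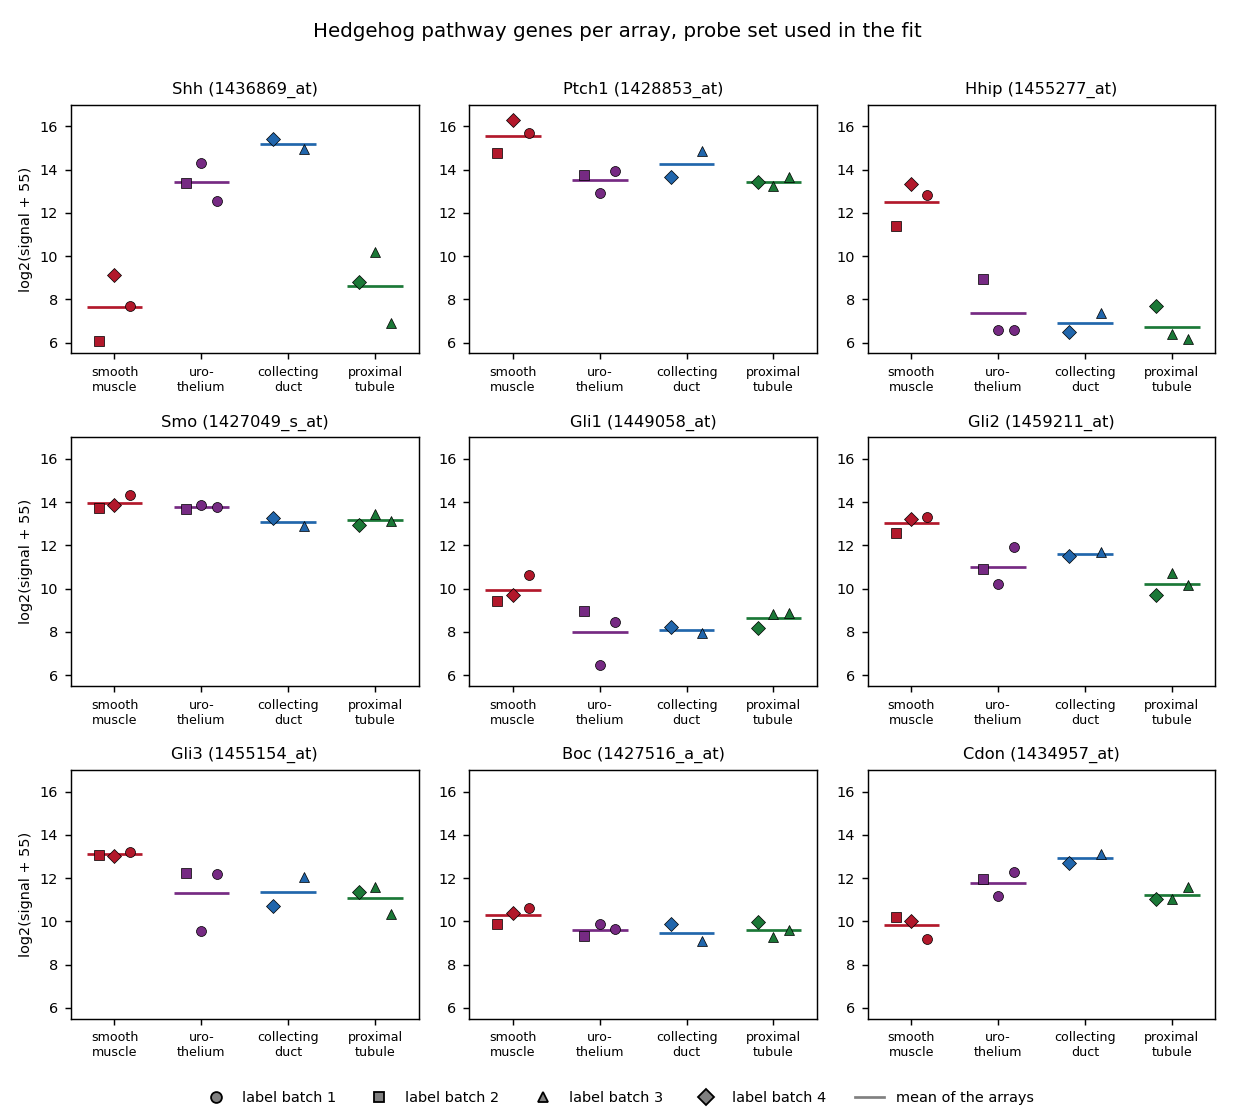
Level of each of the 9 genes on the log2(signal + 55) scale in the 11 arrays, 1 point per array, with the mean of each compartment as a line and the marker shape giving the label batch. Shh stands at 12.56 or above in the urothelium and collecting duct arrays and at 10.19 or below in the others, whereas Hhip stands at 11.40 or above in the 3 smooth muscle arrays only.

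Set against the mean of the other 3 compartments, smooth muscle had 5 of the 9 genes higher and 2 lower, where 6.05% of all genes tested were called higher and 9.12% lower. The median log2 difference of the 9 genes was 1.70, against -0.07 over all genes. Of the 5 higher genes, Hhip, Gli1, Gli2 and Gli3 had every smooth muscle array above every other array, which 5.21% of all genes did. Urothelium against the other 3 had 1 gene higher, Shh, where 1.65% of all genes were called higher. Collecting duct had 2 genes higher, Shh and Cdon, where 1.42% were. Proximal tubule had 3 genes lower, Shh, Hhip and Gli2, where 6.41% were.

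Between pairs of compartments, smooth muscle against urothelium gave 3 genes higher (Ptch1, Hhip and Gli2) and 2 lower (Shh and Cdon), where 2.93% of all genes were called higher and 5.03% lower. Smooth muscle against collecting duct gave 1 higher (Hhip) and 2 lower (Shh and Cdon), where 3.36% and 4.91% of all genes were. Smooth muscle against proximal tubule gave 4 higher (Ptch1, Hhip, Gli2 and Gli3) and 1 lower (Cdon), where 8.06% and 12.3% were. The 3 pairs without smooth muscle gave fewer calls. Shh was the only gene called in urothelium against proximal tubule and in collecting duct against proximal tubule, higher in each, where 5.02% and 2.19% of all genes were called higher. Urothelium against collecting duct gave 0 calls by limma, where 0.257% of all genes were called, and 1 gene, Cdon, at an unadjusted p under 0.05; no other tool was run.

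**Figure D2:**
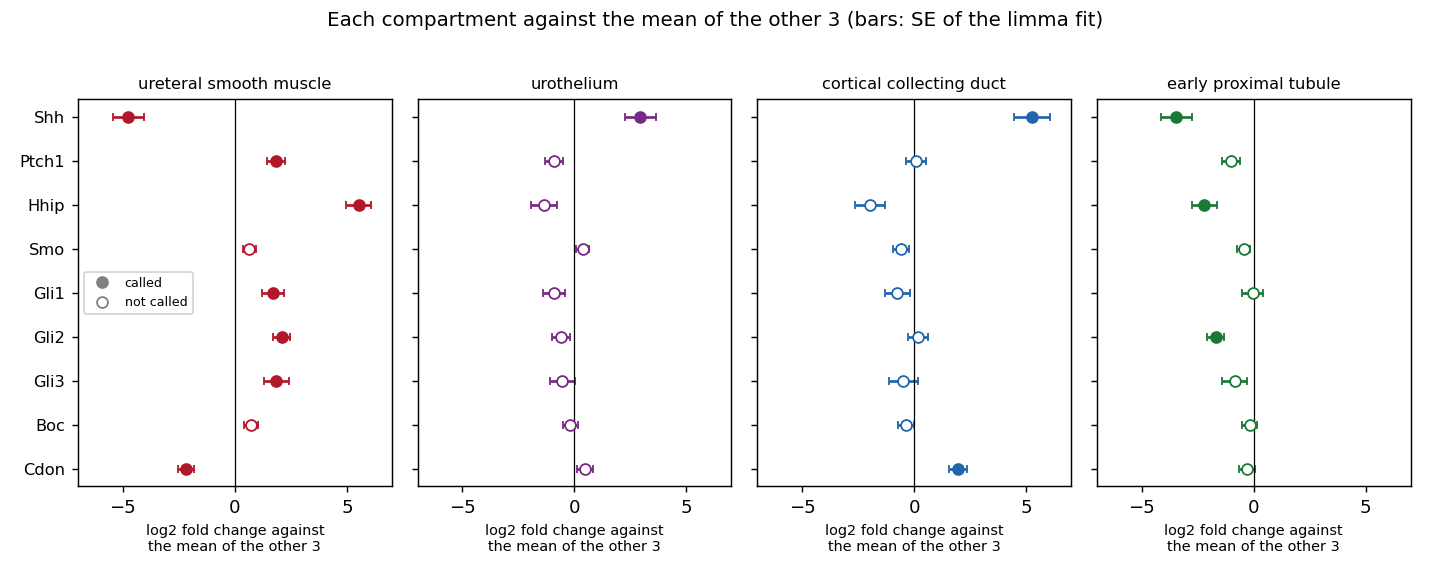
Log2 difference of each gene between 1 compartment and the mean of the other 3, with the standard error of the limma fit as bars and called genes as filled points. In smooth muscle Hhip (5.52), Gli2 (2.09), Gli3 (1.85), Ptch1 (1.83) and Gli1 (1.70) lie to the right and Shh (-4.76) and Cdon (-2.17) to the left, while Smo and Boc are open in every panel.

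Shh, the secreted ligand (chromosome 5, 28456840 to 28467101 in GRCm38.p6), was read from probe set 1436869_at. Its signal was 11.5, 511 and 154 in the 3 smooth muscle arrays, 10667, 19992 and 5979 in the 3 urothelium arrays, 42907 and 31167 in the 2 collecting duct arrays, and 384, 1109 and 63.2 in the 3 proximal tubule arrays. The 5 urothelium and collecting duct arrays all lay above the 6 others, and both collecting duct arrays lay above the 3 of urothelium. The share of all genes with the first of these divisions was not counted. Shh was lower in smooth muscle than in urothelium by 54.8-fold (log2 difference -5.78 ± 0.83 (SE, n = 3 and 3), adjusted p = 0.000826) and lower than in collecting duct by 184-fold (-7.52 ± 0.93, adjusted p = 0.000245). It was higher in urothelium than in proximal tubule by 27.8-fold (adjusted p = 0.00228), and higher in collecting duct than in proximal tubule by 93.3-fold (adjusted p = 0.00108). In order, the levels ran from collecting duct over urothelium and proximal tubule to smooth muscle. Urothelium and collecting duct, neighbours in that order, differed by -1.75 ± 0.93 with an adjusted p of 0.484. Their arrays did not overlap, which with urothelium lower was so for 11.8% of all genes. Smooth muscle and proximal tubule differed by -0.98 ± 0.83 (adjusted p = 0.458). Both of these steps changed sign with label batch as a fixed block (0.23, adjusted p = 0.999, and 0.30, adjusted p = 0.941), and in batch 4 the smooth muscle array exceeded the proximal tubule array by 0.37, so that the order within either pair is not resolved.

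The sizes of the Shh folds depended on the pseudocount and on single arrays, since the smooth muscle signals were dim. Smooth muscle against urothelium was -6.42 at a pseudocount of 12 and -4.92 at 190, and -4.99 and -6.53 without smooth muscle replicates 1 and 2. Smooth muscle against collecting duct was -8.17 and -6.65 at those pseudocounts, -6.73 and -8.28 without those arrays, and -6.18 with label batch as a fixed block. Each of these values stayed called. Against proximal tubule, the difference was 5.58 and 3.93 for urothelium, and 7.33 and 5.68 for collecting duct, without proximal tubule replicates 2 and 3, and it stayed called in each.

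The Shh calls differed in how much they rested on single arrays. Urothelium against the mean of the other 3 was called at 2.94 ± 0.69 with an adjusted p of 0.0434, and this call ended without any 1 of 6 arrays: the adjusted p was 0.0624 without smooth muscle replicate 3, 0.146 and 0.219 without urothelium replicates 1 and 2, 0.0839 and 0.102 without collecting duct replicates 1 and 2, and 0.0682 without proximal tubule replicate 1. Without proximal tubule replicate 3 it lay at the threshold (2.65, adjusted p = 0.05 after rounding). The call in collecting duct, at an adjusted p of 0.00564, likewise ended without replicate 1 (0.135) or replicate 2 (0.0732), each of which leaves a single array there that is assumed to vary like the other groups. The lower level in proximal tubule (-3.45 ± 0.69, adjusted p = 0.00418) was -2.59 without replicate 3 and -4.24 without replicate 2. The lower level in smooth muscle (-4.76 ± 0.69, adjusted p = 0.000409) was -3.97 without replicate 1, the dimmest array for Shh, and -5.52 without replicate 2, and it was -4.08 at a pseudocount of 190. A second Shh probe set, 1427571_at, stayed between 8.49 and 118 in the 11 arrays, above the array median in 0 of them, and was removed by the filter. Shh is therefore described here by 1 probe set.

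Ptch1, the receptor that binds Shh and restrains Smo (chromosome 13, 63508328 to 63573460), was read from 1428853_at. Its signal was 27671, 79087 and 52699 in smooth muscle, 13593, 7758 and 15369.96 in urothelium, 13015 and 29923 in collecting duct, and 10999, 9719 and 12713 in proximal tubule. The smooth muscle arrays lay above all urothelium and proximal tubule arrays, whereas collecting duct replicate 2 exceeded smooth muscle replicate 1. Taken pair by pair, 10.4% of all genes lay so against urothelium and 16.7% against proximal tubule. Ptch1 was higher in smooth muscle than the mean of the other 3 by 3.54-fold (1.83 ± 0.40, adjusted p = 0.00664), than urothelium by 2.05 ± 0.48 (adjusted p = 0.0172) and than proximal tubule by 2.13 ± 0.48 (adjusted p = 0.00627). The difference from collecting duct was 1.30 ± 0.53 with an adjusted p of 0.181. Against urothelium the call ended without smooth muscle replicate 2 (1.70, adjusted p = 0.0783), smooth muscle replicate 3 (1.99, 0.0577) or urothelium replicate 2 (1.75, 0.0732).

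The other Ptch1 probe sets did not show this pattern. On 1439663_at the signal was 159, 749.76 and 428 in smooth muscle, 719, 104 and 218 in urothelium, 785 and 360.31 in collecting duct, and 608, 169 and 54.6 in proximal tubule. Its groups overlapped, and it was called in 0 comparisons when every probe set was fitted as a feature of its own. A further probe set, 1450824_at, stayed between 19.7 and 341 and was removed by the filter. With the mean of the gene's probe sets in place of the one with the highest mean, Ptch1 in smooth muscle was 1.04 against the other 3 (adjusted p = 0.125), 1.24 against urothelium (0.181) and 1.46 against proximal tubule (0.0602), so that none of its calls held.

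Hhip, which binds hedgehog ligands at the cell surface and lowers their supply (chromosome 8, 79965850 to 80058060), had the largest difference in favour of smooth muscle among the 9 genes. On 1455277_at its signal was 2645, 10349 and 7193 in smooth muscle, 429, 41.0 and 41.6 in urothelium, 34.4 and 108 in collecting duct, and 149, 29.5 and 15.6 in proximal tubule. The 3 smooth muscle arrays stood apart from the other 8, of which urothelium replicate 1 was the highest. Hhip was higher in smooth muscle than the mean of the other 3 by 45.8-fold (5.52 ± 0.57, adjusted p = 2.97e-05), than urothelium by 35.7-fold (adjusted p = 0.000475), than collecting duct by 48.8-fold (adjusted p = 0.000477) and than proximal tubule by 55.1-fold (adjusted p = 5.83e-05). The order below smooth muscle was urothelium, collecting duct and proximal tubule, and neighbours among these 3 had adjusted p of 0.863 and 0.946. Outside smooth muscle most Hhip signals lay near the pseudocount, and the sizes of the folds moved with it: the difference from the other 3 was 6.24 at a pseudocount of 12 and 4.46 at 190, 4.49 with the gene's probe sets averaged, and 6.34 without the 2 arrays of label batch 2. In the pairs with urothelium, collecting duct and proximal tubule it was 5.76, 6.29 and 6.68 at a pseudocount of 12, 4.23, 4.55 and 4.61 at 190, and 3.64, 4.85 and 4.98 with the probe sets averaged. Hhip stayed called in each of these fits. Urothelium replicate 1 also had the highest smooth muscle marker sum of the urothelium arrays, and without that array the difference between smooth muscle and urothelium was 5.93 in place of 5.16. On 1438083_at and 1421426_at the highest urothelium array was replicate 2 (951 and 821, against 929 and 331 in replicate 1). Its marker sum was lower (39226, against 63741 in replicate 1). Replicate 3, with the lowest marker sum (10571), had the lowest urothelial signal on both probe sets (7.59 and 112). The part of carried-over muscle in the urothelial Hhip signal was not tested.

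All 4 Hhip probe sets gave the same call. Signals were 2689, 3422 and 7429.85 in smooth muscle on 1438083_at, against 929, 951 and 7.59 in urothelium, 16.1 and 2.63 in collecting duct and 5.76, 2.49 and 13.6 in proximal tubule. On 1421426_at they were 1534, 1946 and 2296 in smooth muscle, against 331, 821 and 112 in urothelium, 47.9 and 39.6 in collecting duct and 27.5, 15.7 and 15.4 in proximal tubule. On 1437933_at they were 163, 1647 and 1455 in smooth muscle, against 10.2 to 12.0 in urothelium, 11.5 and 27.7 in collecting duct and 12.6 to 48.4 in proximal tubule. Fitted one by one, the 4 differed from the mean of the other compartments by 5.52, 5.16, 3.79 and 3.49, with adjusted p from 8.64e-05 to 0.00112, and each was higher in smooth muscle in all 3 pairs too. 1437933_at passed the filter through 2 smooth muscle arrays alone, and a probe set kept that way had to differ. The main probe set, 1455277_at, lay above the median in 4 arrays, the 3 of smooth muscle and urothelium replicate 1. It too was thus kept through smooth muscle. 1438083_at and 1421426_at lay above it in 5 arrays each, urothelium replicates 1 and 2 among them. Low but uneven urothelial signal appeared on 1421426_at, where urothelium was higher than proximal tubule by 2.37 ± 0.53 (adjusted p = 0.0166). Proximal tubule against the mean of the other 3 was called lower on the gene's main probe set at -2.20 ± 0.57 (adjusted p = 0.0193), and this ended without collecting duct replicate 2 (adjusted p = 0.0502), proximal tubule replicate 2 (0.0933) or proximal tubule replicate 3 (0.104).

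**Figure D3:**
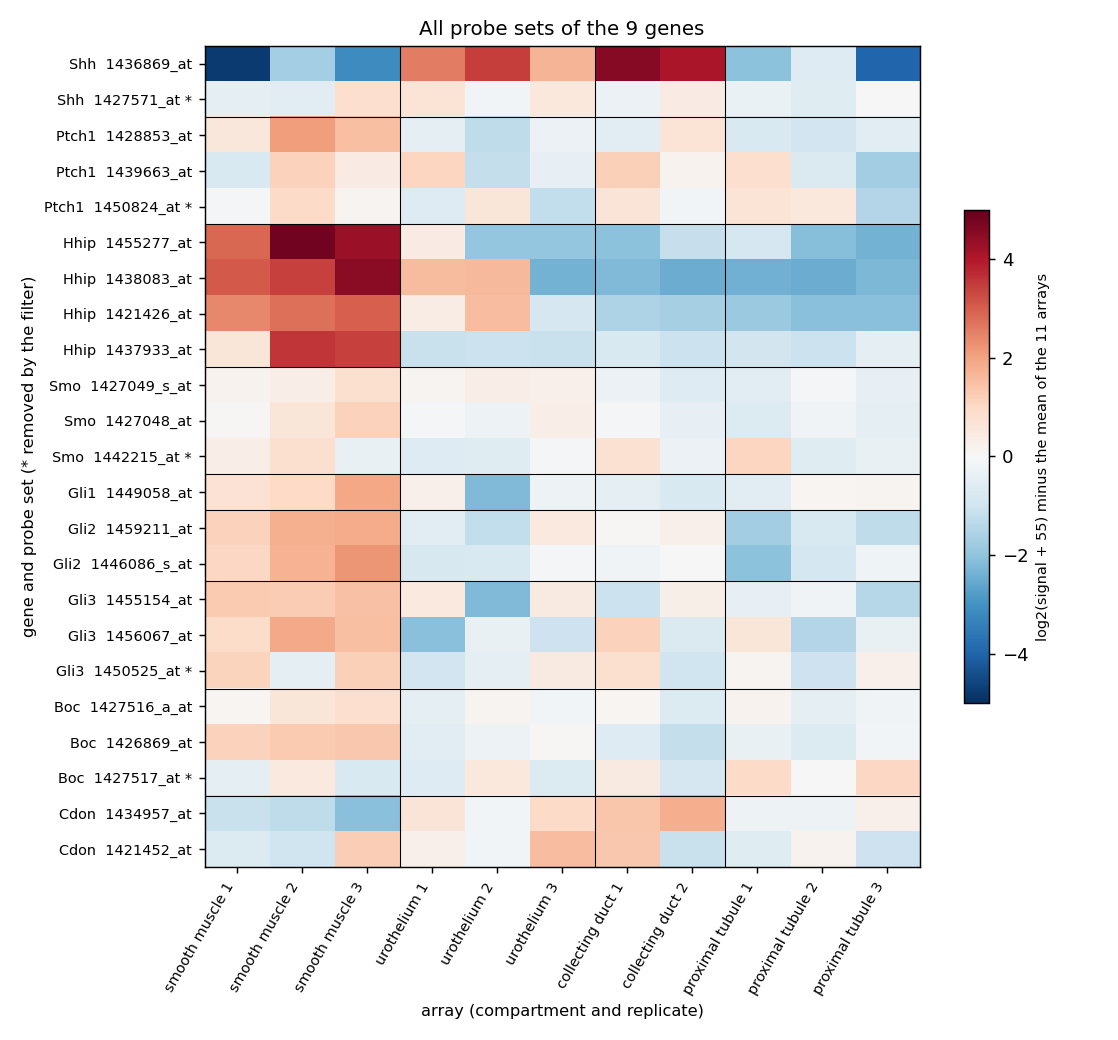
All 23 probe sets of the 9 genes (rows) in the 11 arrays (columns), coloured by log2(signal + 55) minus the probe set's mean over the arrays, with asterisks on the 5 removed by the filter. The 4 Hhip rows are above their mean in each smooth muscle array, and Shh 1436869_at is above its mean in each urothelium and collecting duct array.

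Smo, the membrane protein that carries the signal once Ptch1 is bound (chromosome 6, 29735497 to 29761366), was called in no comparison. Its signal on 1427049_s_at was 13497, 14842 and 20713 in smooth muscle, 13059, 14922 and 14232 in urothelium, 9675 and 7483 in collecting duct, and 7921, 11094 and 8793 in proximal tubule. On this probe set the 6 arrays of the ureter, muscle and urothelium, all lay above the 5 of collecting duct and proximal tubule. The share of all genes that divide this way was not counted. Label batches 1 and 2 hold ureter arrays only and batch 3 kidney arrays only, so the split largely follows the batches. The differences from the mean of the other 3 were 0.64 ± 0.29 for smooth muscle (adjusted p = 0.183), 0.38 ± 0.29 for urothelium (0.572), -0.58 ± 0.34 for collecting duct (0.506) and -0.44 ± 0.29 for proximal tubule (0.357). The second probe set, 1427048_at, had 2813, 4098 and 6004 in smooth muscle, 2594, 2263 and 3419 in urothelium, 2518 and 2022 in collecting duct, and 1631, 2369 and 1933 in proximal tubule, and was not called for smooth muscle either (0.83 ± 0.34, adjusted p = 0.172). On 1427048_at urothelium replicate 2 lay below collecting duct replicate 1 and proximal tubule replicate 2, so the split was not repeated there. A further probe set, 1442215_at, was removed by the filter.

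Boc and Cdon are related cell surface proteins that bind hedgehog ligands alongside Ptch1. Cdon (chromosome 9, 35421528 to 35507652) had signals of 1119, 996 and 533 in smooth muscle, 3885, 2272 and 4876 in urothelium, 6613 and 8939 in collecting duct, and 2056, 2057 and 2978 in proximal tubule on 1434957_at. The smooth muscle arrays lay below all others and the collecting duct arrays above all others, which 5.13% and 2.73% of all genes showed. Cdon was lower in smooth muscle than the mean of the other 3 by 4.49-fold (-2.17 ± 0.35, adjusted p = 0.00085), than urothelium by 3.96-fold (-1.99 ± 0.42, adjusted p = 0.00976), than collecting duct by 8.62-fold (-3.11 ± 0.47, adjusted p = 0.000945) and than proximal tubule by 2.65-fold (-1.41 ± 0.42, adjusted p = 0.0301). The last of these ended without smooth muscle replicate 3 (-1.10, adjusted p = 0.125), proximal tubule replicate 1 (0.054), replicate 2 (0.063) or replicate 3 (0.0963).

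Collecting duct had more Cdon than the mean of the other 3 by 3.93-fold (1.98 ± 0.40, adjusted p = 0.0234), a call that ended without its replicate 1 (2.19, adjusted p = 0.163) or 2 (1.76, 0.224). Collecting duct against proximal tubule stood at 1.70 ± 0.47 with an adjusted p of 0.0506, and urothelium against collecting duct at -1.12 ± 0.47 (0.35). By mean level the order was collecting duct, urothelium, proximal tubule and smooth muscle, and only the step from proximal tubule to smooth muscle was called between neighbours. A second Cdon probe set, 1421452_at, ran from 20.4 to 429, passed the filter through 2 arrays and was called in 0 comparisons. With both probe sets averaged, smooth muscle against the other 3 was -1.19 (adjusted p = 0.0361) and against collecting duct -1.68 (0.0425), both still called. The calls of smooth muscle against urothelium (-1.34, adjusted p = 0.071) and proximal tubule (-0.53, 0.425), and of collecting duct against the other 3 (1.06, 0.245), ended with that average.

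Boc (chromosome 16, 44485045 to 44558870) gave different calls on its 2 kept probe sets. On 1427516_a_at, the one with the higher mean over the arrays and so used for the gene, the signal was 884, 1268 and 1508 in smooth muscle, 579.53, 891 and 743 in urothelium, 878 and 487 in collecting duct, and 939, 571 and 721 in proximal tubule. On 1426869_at it was 1879.82, 2071 and 2133 in smooth muscle, 543, 668 and 843 in urothelium, 493 and 328 in collecting duct, and 621, 483 and 733 in proximal tubule. The groups overlapped on the first, where smooth muscle against the other 3 was 0.72 ± 0.33 (adjusted p = 0.174). On the second, the smooth muscle arrays lay above all others, as 5.21% of all genes did in the gene fit, while the other 3 compartments overlapped. Fitted as a feature of its own, this second probe set was higher in smooth muscle by 1.78 ± 0.32 (adjusted p = 0.00298). That probe set was also higher in smooth muscle than in urothelium (1.51 ± 0.38, adjusted p = 0.0411), collecting duct (2.18 ± 0.43, adjusted p = 0.0094) and proximal tubule (1.66 ± 0.38, adjusted p = 0.0114). The means of these 2 probe sets over the arrays lay close together, so the choice between them for the gene was a narrow one. Across the 22 alternative limma fits, smooth muscle against the other 3 ran from 0.55 to 1.58 for the gene. Its adjusted p ran from 0.000527 to 0.525. A further probe set, 1427517_at, was removed by the filter, and which probe set follows the transcripts of these cells was not tested.

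**Figure D4:**
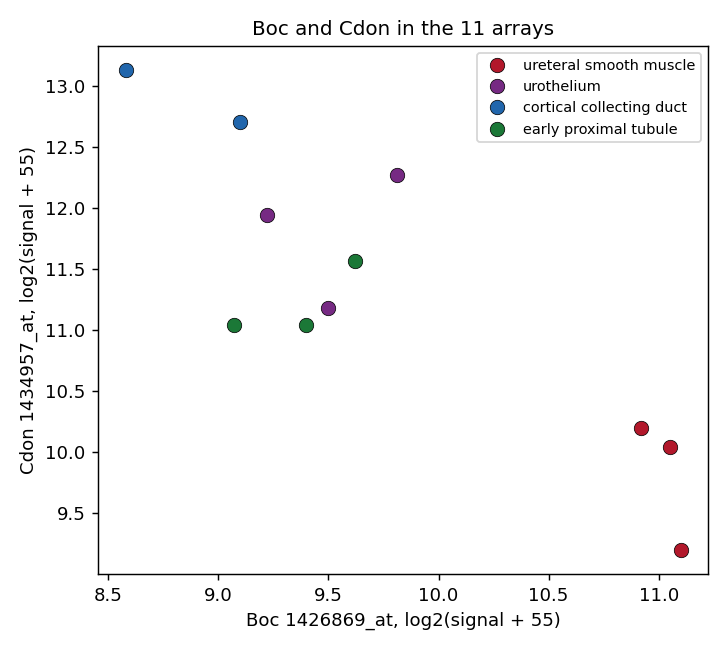
Level of Cdon (1434957_at) against that of Boc (1426869_at) in the 11 arrays, both on the log2(signal + 55) scale, with 1 point per array. The 3 smooth muscle arrays have the highest Boc and the lowest Cdon levels; this Boc probe set is not the one used for the gene in the fit.

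Among the transcription factors, Gli1, an activator and itself a product of the active pathway (chromosome 10, 127329882 to 127341579), was measured by 1 probe set, 1449058_at. Its signal was 645, 787 and 1545 in smooth muscle, 451, 34.9 and 303 in urothelium, 244 and 196 in collecting duct, and 240.01, 400.46 and 414 in proximal tubule. All 3 smooth muscle arrays lay above the other 8. Gli1 was higher in smooth muscle than the mean of the other 3 by 3.24-fold (1.70 ± 0.48, adjusted p = 0.0282), but none of the pairs was called: 1.95 ± 0.58 against urothelium (adjusted p = 0.0554), 1.84 ± 0.64 against collecting duct (0.108) and 1.30 ± 0.58 against proximal tubule (0.135). The call ended without smooth muscle replicate 2 (adjusted p = 0.0622), smooth muscle replicate 3 (1.35, 0.156) or collecting duct replicate 2 (0.0586). The lowest of the 11 values was that of urothelium replicate 2, the array with the highest Gapdh ratio, whose part in it was not tested.

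Gli2, the main activator of the pathway in mouse tissues (chromosome 1, 118834061 to 119054405), had signals on 1459211_at of 6102, 9576 and 10004 in smooth muscle, 1878, 1138 and 3848 in urothelium, 2862 and 3303 in collecting duct, and 786, 1623 and 1099 in proximal tubule. The smooth muscle arrays were the 3 highest. Gli2 was higher in smooth muscle than the mean of the other 3 by 4.27-fold (2.09 ± 0.39, adjusted p = 0.0023), than proximal tubule by 7.15-fold (2.84 ± 0.47, adjusted p = 0.000729) and than urothelium by 2.02 ± 0.47 (adjusted p = 0.0166), with 1.43 ± 0.52 against collecting duct (0.126). Against urothelium the call ended without smooth muscle replicate 2 (adjusted p = 0.06) or 3 (0.0637), or urothelium replicate 1 (0.0533) or 2 (0.0717). Proximal tubule was lower than the mean of the other 3 by -1.69 ± 0.39 (adjusted p = 0.00971), and this ended without its replicate 1 (-1.45, 0.058). The second probe set, 1446086_s_at, which derives from the same source sequence, had 1192, 2023 and 2796 in smooth muscle, against 296, 303 and 543 in urothelium, 486 and 546 in collecting duct and 91.8, 283 and 468 in proximal tubule. It was higher in smooth muscle by 2.23 ± 0.43 (adjusted p = 0.00498).

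Gli3, which in its processed form is the main repressor (chromosome 13, 15463723 to 15730026), had signals on 1455154_at of 8645, 8356 and 9497 in smooth muscle, 4811, 690.32 and 4641 in urothelium, 1602 and 4228 in collecting duct, and 2590.31, 3048 and 1240.4 in proximal tubule. The smooth muscle arrays were the highest and had an SD of 0.10 on the log2 scale, against 1.55 in urothelium. Gli3 was higher in smooth muscle than the mean of the other 3 by 3.59-fold (1.85 ± 0.55, adjusted p = 0.0366) and than proximal tubule by 2.01 ± 0.66 (adjusted p = 0.0456), with 1.79 ± 0.66 against urothelium (0.133) and 1.74 ± 0.74 against collecting duct (0.198). The first call ended without any 1 of the smooth muscle arrays (adjusted p of 0.106, 0.0901 and 0.116 without replicates 1, 2 and 3), collecting duct replicate 1 (0.0918) or proximal tubule replicate 3 (0.0613). The call against proximal tubule ended without any smooth muscle array (0.0984, 0.087 and 0.107) or any proximal tubule array (0.0734, 0.0662 and 0.166). On 1456067_at the signal was 2911, 5739 and 4391 in smooth muscle, 309, 1163 and 704 in urothelium, 3389 and 886 in collecting duct, and 2291, 519 and 1166 in proximal tubule. That probe set was higher in smooth muscle than the mean of the other 3 by 1.90 ± 0.54 (adjusted p = 0.0428) and than urothelium by 2.61 ± 0.65 (adjusted p = 0.037). A further probe set, 1450525_at, was removed by the filter.

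Differences within a label batch ran the same way as those over all arrays for the genes called in these pairs. In smooth muscle against urothelium, which share batches 1 and 2, Shh differed by -5.72 and -7.33, Hhip by 6.23 and 2.48, Ptch1 by 2.26 and 1.02, Gli1 by 3.16 and 0.47, Gli2 by 2.22 and 1.67, Gli3 by 2.35 and 0.84, and Cdon by -2.53 and -1.75. Batch 2 holds 1 array of each compartment and gave the smaller difference for each of these genes but Shh. Smooth muscle against collecting duct could be compared within batch 4, also with 1 array each, where Shh differed by -6.25, Hhip by 6.86, Ptch1 by 2.60, Gli2 by 1.72 and Cdon by -2.67. Collecting duct against proximal tubule gave 6.40 and 6.61 for Shh and 1.83 and 1.66 for Cdon in batches 3 and 4. Smooth muscle against proximal tubule, in batch 4, gave 5.67 for Hhip, 3.52 for Gli2, 2.84 for Ptch1, 1.67 for Gli3 and -1.01 for Cdon.

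With label batch as a fixed block in the fit, 14 of the 28 calls over the 10 comparisons were kept and 14 ended. Those of Shh that ended were urothelium (4.45, adjusted p = 0.416), collecting duct (4.15, 0.226) and proximal tubule (-4.50, 0.0504) against the other 3, and urothelium against proximal tubule (6.71, 0.145). Among the genes higher in smooth muscle against the other 3, Gli1 (1.67, adjusted p = 0.203) and Gli3 (1.91, 0.195) ended, whereas Ptch1, Hhip and Gli2 stayed called. The other calls that ended were Ptch1 and Gli2 in smooth muscle against urothelium (1.73, adjusted p = 0.0973, and 1.99, 0.0734), Gli3 against proximal tubule (2.17, 0.387), Cdon against collecting duct and proximal tubule (-2.71, 0.0818, and -0.96, 0.556), Cdon in collecting duct (1.66, 0.405), and Hhip and Gli2 in proximal tubule against the other 3 (-2.71, 0.17, and -2.08, 0.127). Hhip stayed called in smooth muscle against the other 3 and in each of its 3 pairs. No batch holds urothelium together with either kidney compartment, so that fit links them only through the smooth muscle arrays.

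**Figure D5:**
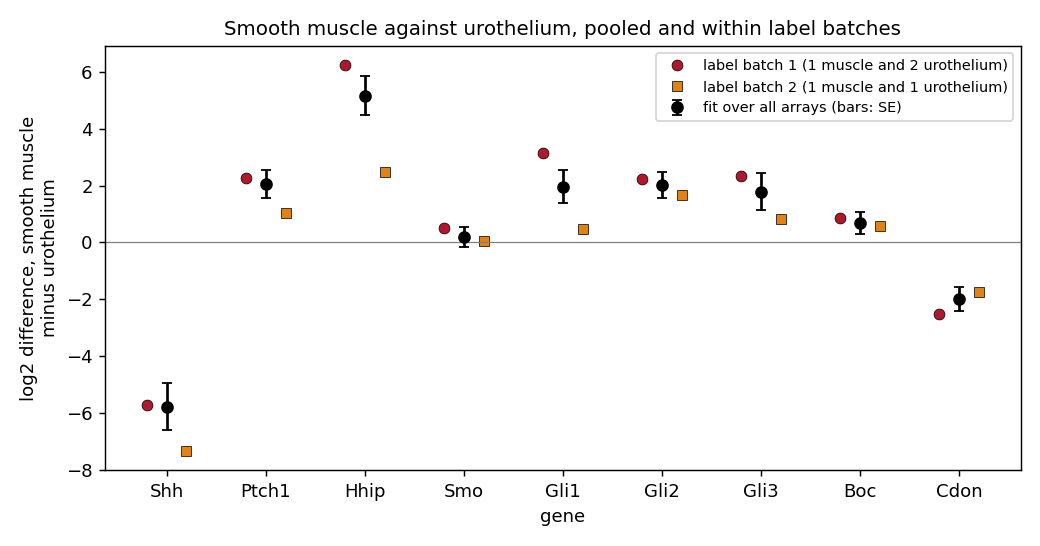
Log2 difference of each gene between smooth muscle and urothelium within label batch 1 (circles, 1 muscle and 2 urothelium arrays), over all arrays (black, bars give the standard error) and within label batch 2 (squares, 1 array each). For Hhip the 2 batches gave 6.23 and 2.48 around the value of 5.16 over all arrays, and for Gli1 3.16 and 0.47 around 1.95.

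The 3 stretches of DNA printed here lie before annotated gene starts and belong to genes with unlike patterns: Hhip and Gli3, called higher in smooth muscle, and Smo, called nowhere. They are RefSeq sequences on GRCm38.p6, read 5' to 3' on the gene's strand up to the base before the outermost start, with CG pairs in capitals. The Hhip stretch is chr8:80058061-80058258 on the minus strand, that of Gli3 chr13:15463473-15463722 on the plus strand and that of Smo chr6:29735247-29735496 on the plus strand.
Hhip: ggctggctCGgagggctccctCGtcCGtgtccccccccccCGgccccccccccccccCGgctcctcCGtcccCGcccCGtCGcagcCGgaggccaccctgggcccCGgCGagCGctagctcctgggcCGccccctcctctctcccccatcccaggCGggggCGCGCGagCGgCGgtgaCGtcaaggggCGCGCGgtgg
Gli3: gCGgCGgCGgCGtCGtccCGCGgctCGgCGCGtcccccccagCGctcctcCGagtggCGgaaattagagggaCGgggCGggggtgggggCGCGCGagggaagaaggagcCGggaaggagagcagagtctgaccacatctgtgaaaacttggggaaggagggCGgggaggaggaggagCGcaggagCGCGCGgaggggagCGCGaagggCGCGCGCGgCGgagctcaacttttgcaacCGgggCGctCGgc
Smo: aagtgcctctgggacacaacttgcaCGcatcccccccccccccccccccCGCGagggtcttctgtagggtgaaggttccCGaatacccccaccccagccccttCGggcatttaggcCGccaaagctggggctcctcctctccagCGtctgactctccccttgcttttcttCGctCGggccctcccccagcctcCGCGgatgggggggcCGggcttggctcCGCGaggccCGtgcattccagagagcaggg
Promoter windows of 300 bases, from 250 before to 50 after a start, were at hand for 6 of the 9 genes (Ptch1, Hhip, Smo, Gli2, Gli3 and Cdon). The windows of Ptch1, Gli2 and Cdon have 0 bases before the outermost annotated start and lie inside the gene. They may therefore miss the promoter at that start. The 6 windows held 47 CG pairs for Ptch1, 39 for Gli3, 30 for Hhip, 28 for Gli2, 17 for Smo and 3 for Cdon, against a median of 7 over 32851 windows of that length. The Gli binding motif GACCACCCA, searched on both strands (TGGGTGGTC on the other), was in 0 of these 6 windows and in 0.253% of all windows. With at most 1 base changed it was in 0 of 6 and in 6.74% of all. This says only that these letters are not in these windows.

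Other genes of the pathway were counted by role. Of 8 genes for other ligands and ligand release, 5 passed the filter, and 1 was called in any comparison. The share of all genes called in any comparison was not counted. The called gene was Scube3, whose family of secreted proteins helps ligand leave the producing cell. It was 1 of 5 genes called higher in collecting duct against the other 3, where 1.42% of all genes were. Its signal was 833, 1427 and 1934 in smooth muscle, 1216, 1094 and 5022 in urothelium, 14302 and 9921 in collecting duct, and 485, 2069 and 1846 in proximal tubule. Both collecting duct arrays thus lay above the rest, which was so for 2.73% of all genes. Scube3 was higher in collecting duct than the mean of the other 3 by 2.98 ± 0.61 (adjusted p = 0.0236), and the call ended without either collecting duct array (adjusted p of 0.263 and 0.133 without replicates 1 and 2). The ligand Ihh had mean levels of 8.78 ± 0.52, 9.19 ± 0.52, 8.58 ± 0.02 and 8.75 ± 0.64 (log2, SD) in smooth muscle, urothelium, collecting duct and proximal tubule, and Dhh was removed by the filter.

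Of 4 other receptors, 2 were on the array. Lrp2, an endocytic receptor of proximal tubule that also takes up Shh in the mouse forebrain, was lower in smooth muscle than in proximal tubule by -8.03 ± 0.92 (adjusted p = 4.37e-05). Gas1, a further ligand-binding co-receptor, was called in no comparison and had mean levels of 13.44 ± 0.12 in smooth muscle, 11.96 ± 1.97 in urothelium, 12.62 ± 1.39 in collecting duct and 12.00 ± 0.41 in proximal tubule (log2, SD).

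The genes that carry the signal inside the cell gave counts near the background. Of 20 measured, 2 were higher and 0 lower in smooth muscle against the other 3, where 6.05% of all genes were called higher and 9.12% lower, with a median difference of -0.02 against -0.07 over all genes. Those 2 were Gpr161, a ciliary receptor that keeps the pathway low (1.15 ± 0.32, adjusted p = 0.0274), and Prkacb, a catalytic subunit of protein kinase A (1.30 ± 0.33, adjusted p = 0.0161). With its probe sets averaged, Prkacb fell to 0.44 (adjusted p = 0.565) and was no longer called. The count was 0 without smooth muscle replicate 1 or 2, and 0 with label batch as a fixed block. It was 1 without replicate 3, without the 2 arrays of label batch 2, and with probe sets averaged. Proximal tubule had 2 higher and 1 lower, where 9.53% and 6.41% of all genes were, among them Evc2, which binds Smo at the cilium (1.52 ± 0.33, adjusted p = 0.00712). The Evc2 call ended with label batch as a fixed block (1.51, adjusted p = 0.146). Ift172, part of the transport system of cilia, was lower in urothelium than in proximal tubule by -1.90 ± 0.54 (adjusted p = 0.0367), a call that ended without urothelium replicate 1 (0.0671) or 2 (0.127) or proximal tubule replicate 2 (0.116) or 3 (0.13).

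A further list held genes that hedgehog signals induce in other tissues, or that mark the mesenchyme receiving them. It had 18 symbols, with Foxf1 entered under its old symbol Foxf1a as well, and 14 measured members. Of these, 6 were higher and 1 lower in smooth muscle against the other 3, where 6.05% and 9.12% of all genes were, with a median of 1.40 against -0.07 over all genes. In proximal tubule 1 was higher and 7 lower, where 9.53% and 6.41% of all genes were. Against urothelium 5 were higher in smooth muscle and 1 lower, where 2.93% and 5.03% were. Foxf1, a transcription factor that hedgehog signals induce in mouse gut and lung mesenchyme, was higher in smooth muscle by 4.70 ± 0.58 (adjusted p = 0.000124), the growth factor Bmp4 by 1.89 ± 0.36 (0.00278) and the cell cycle gene Ccnd1 by 1.67 ± 0.35 (0.00509). The 3 others, Tbx18 (6.18 ± 0.49, adjusted p = 5.37e-06), Tshz3 (3.13 ± 0.36, 5.87e-05) and Myocd (5.97 ± 0.74, 0.00012), are known for the formation of ureteral mesenchyme and smooth muscle rather than as direct hedgehog targets. The lower gene was Tbx2 (-1.63 ± 0.38, adjusted p = 0.00991; 0.056 and 0.073 without smooth muscle replicates 2 and 3). Tbx3, a related factor, was lower in proximal tubule than the mean of the other 3 by -3.72 ± 0.46 (adjusted p = 0.000126). Of these genes, 7 also stand in the smooth muscle or ureteral mesenchyme marker lists, whose sums were highest in smooth muscle. They include Foxf1, Bmp4, Tbx18, Tshz3 and Myocd, so that their place here and their place as markers cannot be told apart. The count of higher genes therefore says nothing separate about hedgehog targets. Among the higher genes only Ccnd1 stands in neither list. Its call ended with label batch as a fixed block (1.61, adjusted p = 0.0833).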

How the data were processed

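The 11 samples were single arrays, grouped by the compartment in their labels. Replicates were numbered by accession, which pairs no samples. The authors deposited a linear intensity per probe set (45101 on each Affymetrix array), computed in GCOS per the submitters' processing notes, with no version given; each array had a 2% trimmed mean of 1500, and that scaling was kept. Array medians ran from 247 to 401.

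Signals were taken to log2(signal + 55), 55 being the table's rounded 20th percentile. Probe sets above their array's median in at least 2 arrays were kept, 34945 had 1 symbol in the platform annotation used, and a gene was read from its probe set with the highest mean. Symbols were checked by Entrez identifier for 34741 probe sets against a RefSeq table (GRCm38.p6), and 0 changed. One limma fit (limma 3.58.1, R 4.3.3) with a mean per compartment over 13614 genes gave 10 comparisons, with 7 residual and 6.38 prior degrees of freedom and Benjamini-Hochberg adjustment within each. Every probe set was also fitted as its own feature. The procedure was tested on simulated data.

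The 9 genes, the lists and the tests were chosen with earlier results of these data known. Named genes were the 9 members and, from each pathway list, up to 4 called genes with the largest moderated t; Foxf1, Bmp4, Ccnd1 and Tbx2, and Gas1, Ihh and Dhh, were named beside them after their values were seen. For Shh, Ptch1, Gli1 and Hhip the 5 genes with the highest Pearson r were listed. Alternatives changed the normalization, pseudocount, filter, probe set rule, eBayes options and label batch term, or left out arrays. The meaning of the label batches is not stated. Plots used Python 3.11.15, pandas 2.3.3 and matplotlib 3.10.9.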

Additional observations from a re-analysis of the deposited data

How the results depend on the processing

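Under 22 alternatives, 0 of the 28 calls among 90 member values reversed. Of the calls, 11 held under every alternative that was run: Shh in smooth muscle against the other 3, urothelium and collecting duct, and in collecting duct against proximal tubule; Hhip in smooth muscle against the other 3 and each compartment; Gli2 in smooth muscle against the other 3 and proximal tubule; and Cdon in smooth muscle against the other 3. A further 6 ended under 1 alternative and 11 under 2 or more. Calls were also gained, 6 at a pseudocount of 190 and 6 with a gene's probe sets averaged. Label batch as a fixed block, which leaves 4 residual degrees of freedom, ended 14 calls: members called went to 0 in place of 1 for urothelium, 0 in place of 2 for collecting duct and 0 in place of 3 for proximal tubule against the other 3, to 3 in place of 5 for smooth muscle against urothelium and against proximal tubule, and to 0 in place of 1 for urothelium against proximal tubule. The block also ended Gli1 and Gli3 in smooth muscle against the other 3, and Cdon in smooth muscle against collecting duct. The same fit called 951 in place of 2065 of all genes in smooth muscle against the other 3, 406 in place of 2169 in proximal tubule, 3 in place of 278 in collecting duct and 0 in place of 322 in urothelium. For urothelium against the other 3, quantile normalization, a pseudocount of 12, no filter and each probe set as its own feature also gave 0. Each probe set as its own feature gave 1 for collecting duct and 3 for smooth muscle against proximal tubule. Averaging the probe sets of a gene gave 1 for collecting duct against the other 3 and 5 in place of 3 for smooth muscle against collecting duct. For collecting duct against proximal tubule, quantile normalization, a pseudocount of 190, the 75th percentile filter, trend and robust eBayes, and label batch as a random block gave 2 in place of 1. With 1 array left out, counts against the other 3 ran from 5 to 7 for smooth muscle and 0 to 1 for urothelium. They ran from 0 to 2 for collecting duct and 2 to 3 for proximal tubule. For smooth muscle they ran from 3 to 5 against urothelium, 3 to 4 against collecting duct and 3 to 6 against proximal tubule. For collecting duct against proximal tubule they ran from 1 to 2. The cause was not tested. Gli1 was not measured under the 75th percentile filter. No paired analysis was possible because the numbers in the sample titles are missing from 1 title and repeat within compartments, and no pair of compartments shares more than 1 of them; samples were matched by label batch instead, as a block and within batches. Dim probe sets (Shh 1427571_at, and Hhip outside smooth muscle) lie near the pseudocount, so their order is not resolved.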

Other observations

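The genes whose levels ran most like those of 4 pathway genes over the 11 arrays are given by Pearson's r, as a description; the arrays share compartments, so a gene set apart in 1 compartment resembles any other such gene. For Shh they were Ehf (r = 0.984), an epithelial transcription factor, Wls (0.964), which carries Wnt ligands to the cell surface, Sort1 (0.962), Mal2 (0.96) and Foxq1 (0.954). The mean level of Ehf was 8.79 in smooth muscle, 13.50 in urothelium, 14.96 in collecting duct and 9.68 in proximal tubule (log2). For Hhip they were Gfra2 (0.974), a receptor of the neurturin family of ligands, Rbm24 (0.964), Cpxm2 (0.962), Hspb6 (0.961) and Prkg1 (0.96), the cGMP-dependent kinase of smooth muscle. The mean level of Rbm24 was 13.64 in smooth muscle, 9.59 in urothelium, 8.87 in collecting duct and 8.20 in proximal tubule.

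Ptch1 and Gli1, which respond to the same signal in other tissues, had different closest genes. For Ptch1 they were Chsy3 (0.945), Pds5b (0.941), Rgs7 (0.941), Map3k20 (0.938) and St8sia4 (0.929). For Gli1 they were Dennd5a (0.941), Traf5 (0.938), Jam3 (0.933), Atp2b1 (0.924) and Tmem38a (0.915). Whether these lists differ beyond the spread of the arrays was not tested.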
